A study of Mus musculus with 58 samples.

Results

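The 9 genes described here encode laminin chains and nidogens: the laminin alpha chains Lama1, Lama2, Lama4 and Lama5, the beta chains Lamb1 and Lamb2, the gamma chain Lamc1, and the nidogens Nid1 and Nid2. They are 9 of the 19699 gene rows of the table, taken by name under a rule that uses no measured value. The choice was made with earlier results of these data known. Their transcripts were counted in 4310 single cells of mouse embryonic pancreas by SORT-seq, in which cells are sorted 1 to a well and transcripts are counted with unique molecular identifiers. The mothers carried MIP-GFP, a transgene with GFP under the mouse insulin promoter, which marks insulin cells. Cells were sorted either as live cells of the dispersed organ or by GFP intensity, in 7 experiments. Experiment EP16 was from E18.5, EP10 with EP17 from E15.5, EP14 from E14.5, EP12 from E13.5 and EP11 with EP18 from E12.5. No group carried another treatment or allele per the labels, and each experiment held 1 live and 1 MIP-GFP plate, with a second live plate in EP16. Stage follows the stage label. For 12 MIP-GFP libraries the titles differ from it: those of EP11 and of EP18 say E15.5, and those of EP16 say E14.5.

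Basement membranes are sheets of matrix under epithelia and around vessels. A laminin is a trimer of 1 alpha, 1 beta and 1 gamma chain. The alpha chain carries the main sites for integrins and dystroglycan on cells, and nidogen binds the gamma chain and links laminin to collagen IV and perlecan. In the developing pancreas the epithelium branches inside mesenchyme. Its tips give acinar cells and its trunk gives ducts and endocrine cells, and a mesothelium covers the organ.

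Cells were clustered without the 9 genes and without every other basement membrane, receptor and matrix enzyme gene used below, so these genes took no part in defining the classes. Clusters were named from marker lists as tip (303 wells), trunk (385), endocrine (2217), mesenchyme (639), mesothelium (141), immune (285) and, at E12.5, a progenitor cluster carrying markers of tip and of trunk (121). Endothelial wells were the 36 with at least 1 transcript each of Cdh5 and Pecam1, the junction genes of endothelium. All 29 wells of the endothelial cluster were among them, with 4 from the immune cluster, 2 from endocrine clusters and 1 from the tip cluster. A further 141 wells with glucagon and hepatocyte genes, 132 of them from EP11, stayed unnamed, and 27 erythroid wells and 15 neuron and glia wells were too few for tests. Counts were summed over the wells of a class in each experiment where it had at least 10 wells. That gave 7 sums for trunk and endocrine, 6 for mesenchyme, mesothelium and immune, 4 for tip (EP10, EP12, EP14 and EP17) and 2 for endothelium (EP10 and EP14). Levels are transcripts of a gene per 1000000 counted in those sums (CPM). A transcript is counted once whatever its length, so levels are not scaled by gene length. Each gene is compared with itself across classes. Plates held between 1150013 and 9490716 transcripts in retained wells, with EP17 and EP18 the shallowest experiments.

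Lama5 and Nid1 differed in opposite directions between mesenchyme and epithelium. Lama5 was high in epithelium and Nid1 in mesenchyme and endothelium, and both were high in mesothelium. Their promoters are printed to show the sequence before each start. In GENCODE M21 (GRCm38) Lama5 lies on the minus strand at chr2:180176373-180225859 and Nid1 on the plus strand at chr13:13437551-13512269. The bases come from the RefSeq promoter table of GRCm38.p6, which held 5 of the 9 genes, and stop where GENCODE starts the gene. Lama5 covers chr2:180225860-180226109 on the minus strand, and Nid1 covers chr13:13437352-13437550 on the plus strand. Capitals mark GGGCGG or its reverse complement CCGCCC, the core of the GC box bound by Sp-family factors.
Lama5: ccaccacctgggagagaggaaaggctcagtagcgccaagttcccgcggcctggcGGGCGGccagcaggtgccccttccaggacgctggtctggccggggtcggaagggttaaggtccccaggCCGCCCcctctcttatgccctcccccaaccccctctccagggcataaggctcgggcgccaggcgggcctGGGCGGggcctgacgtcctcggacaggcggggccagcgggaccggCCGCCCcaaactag
Nid1: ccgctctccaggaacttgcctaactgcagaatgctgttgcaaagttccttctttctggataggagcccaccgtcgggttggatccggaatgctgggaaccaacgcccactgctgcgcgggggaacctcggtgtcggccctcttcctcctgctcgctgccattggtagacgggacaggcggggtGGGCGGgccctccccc
In the 250 bases before the RefSeq start, Lama5 held 4 matches and Nid1 held 1, counting both strands, and neither held TATAAA on either strand. Of the 32851 promoters in the table, 32.7% held at least 1 GC box match, 4.09% held 4 or more and 12.4% held TATAAA. Lamb1 held 2 GC box matches, and Lama2 and Lamb2 held 0. The matches describe these bases only.

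The chains fell into 3 patterns of supply. Lama2, Lama4, Nid1 and Nid2 came mostly from non-epithelial cells, Lama5 came from epithelium and mesothelium, and Lama1, Lamb1, Lamb2 and Lamc1 were shared. On the live plates, without the EP16 plate whose code holds P6 (nearly all insulin cells), mesenchyme made up 32.6% of wells. It held 86.3% of the Lama2 transcripts (95% Wilson interval 83.0 to 89.1, of 483) and 84.4% of those of Nid1 (83.6 to 85.2, of 7553). Mesenchyme also held 73.4% of Lama4 (71.4 to 75.3), 58.2% of Lama1 (55.5 to 60.8), 53.9% of Lamb2 and 52.9% of Nid2, but 1.42% of Lama5. Trunk, at 19.1% of wells, held 41.6% of Lama5 (39.2 to 44.0), 36.6% of Lamc1, 29.7% of Lama1 and 27.6% of Lamb1. Mesothelium was 7.22% of wells and held 37.4% of Nid2 (34.1 to 40.7) and 14.53% of Lama5. Endothelium was 0.936% of wells and held 8.28% of Lama4 (7.16 to 9.56). The shares varied between experiments, each taken where the gene had at least 50 transcripts. The mesenchymal share ran from 65.0% (EP14, with 28.3% in mesothelium) to 95.5% for Lama2, from 77.9% to 90.2% for Nid1 and from 50.9% to 81.0% for Lama4. For Nid2 it ran from 32.3% to 66.3%, and in EP11 mesothelium held more, at 65.6%. For Lama1 it ran from 36.8% to 68.5%, and in EP12 trunk held more, at 45.0%. The trunk share of Lama5 ran from 27.6% (EP10) to 72.2% (EP16), and tip held more than trunk in EP10 (41.6%) and in EP17 (50.6% against 34.5%). Tip wells made up 27.8% of the wells of EP10 and 56.7% of those of EP17, and none of those of EP16. These shares depend on which cells survived dispersal and on the RNA each cell gave, and the intervals cover counting error only.

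**Figure D1:**
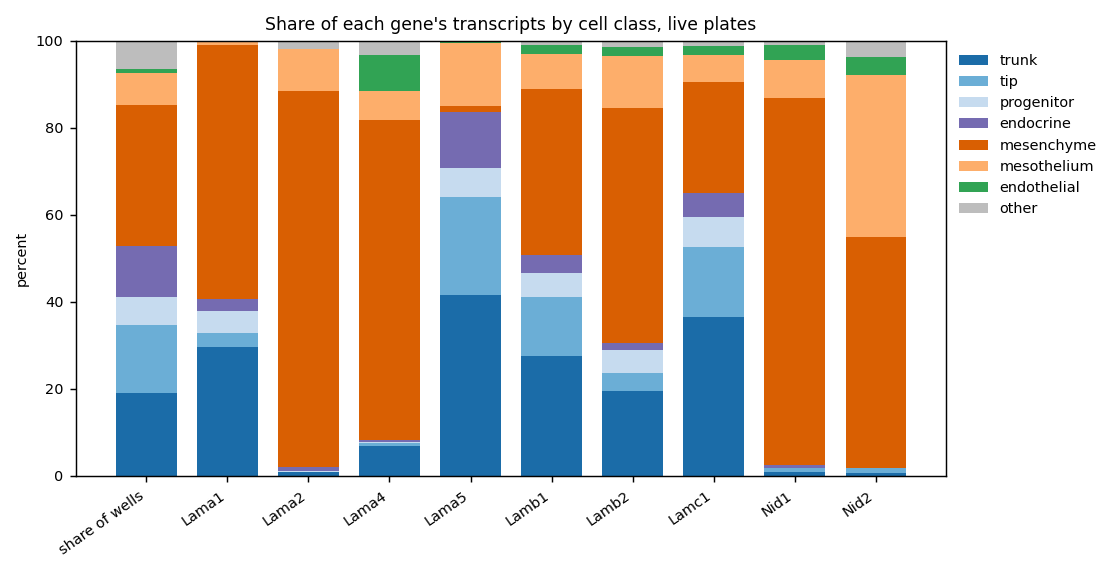
Percent of wells (first bar) and of each gene's transcripts (other bars) by cell class, over all live plates but the P6-coded one; other stands for immune, erythroid, neuron and glia and unnamed wells. Mesenchyme holds 84.4% of Nid1 and 86.3% of Lama2 over these plates together, while Lama5 is mostly trunk, tip, mesothelium and endocrine.

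Nid1, the nidogen that bridges laminin to the collagen IV network, marked the stromal side of the organ. Mesenchyme held between 343 and 1580 CPM over 6 experiments (median 509), endothelium 323 and 446, and mesothelium 143 to 502 (median 265). Trunk held 0 to 19.1, tip 0 to 15.2 and endocrine cells 0 to 3.79. No epithelial experiment reached the lowest mesothelial, endothelial or mesenchymal one. Nid1 was higher in mesenchyme than in the mean of tip and trunk by a log2 difference of 6.26 ± 0.34 (SE; adjusted p = 1.74e-16; higher in 6 of 6 experiments). EP11, EP16 and EP18 had no tip sum. In every count of experiments for mesenchyme against epithelium, trunk alone stood for epithelium in those experiments. The Nid1 level in trunk was 1.39% of that in mesenchyme over all wells, where the summed mesenchyme markers stood at 1.16%. In endocrine cells the percentages were 0.344% and 0.561%. The part of carried-over RNA in the epithelial Nid1 values was not tested.

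Wells with a Nid1 transcript were counted as well. After each well was thinned to 2000 transcripts, Nid1 was seen in 64.3% of mesenchymal wells (60.5 to 67.9; 95.9% without thinning). It was seen in 44.4% of endothelial (29.5 to 60.4; 77.8% without thinning) and 36.2% of mesothelial wells (28.7 to 44.4; 87.9%). In trunk it was seen in 2.86% (16.1% without thinning), in tip in 2.98% (15.8%) and in endocrine cells in 0.451% (3.34%). Without thinning, mesothelium stood above endothelium, the reverse of the order of their levels. Median depths were 14587 transcripts in mesenchyme, 27306 in endothelium, 17521 in mesothelium, 18913 in trunk, 22697 in tip and 17749 in endocrine wells.

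Nid2, the second nidogen, was highest in mesothelium. It held 81.8 to 163 CPM there (median 85.8 over 6 experiments), 68.5 and 91.5 in endothelium, 11.4 to 65.8 in mesenchyme (median 38.8) and 3.51 to 47.4 in immune wells (median 18.3). Every mesothelial sum lay above every mesenchymal one. Mesothelium exceeded mesenchyme by a log2 of 1.44 ± 0.32 (adjusted p = 0.0011; 6 of 6 experiments), while Nid1 was lower in mesothelium by 1.28 ± 0.29 on the same scale (log2 −1.28, adjusted p = 0.00169; lower in 6 of 6, adjusted p = 0.076 without the block on experiment). The immune level of Nid2 was 61.6% of that of mesenchyme, against 0.8286% for the mesenchyme markers. In EP14, 29 of 55 immune wells held a Nid2 transcript (52.7%, 39.8 to 65.3), with at most 5 in 1 well. Tip, trunk and endocrine cells held 0 to 2.11 CPM of Nid2.

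**Figure D2:**
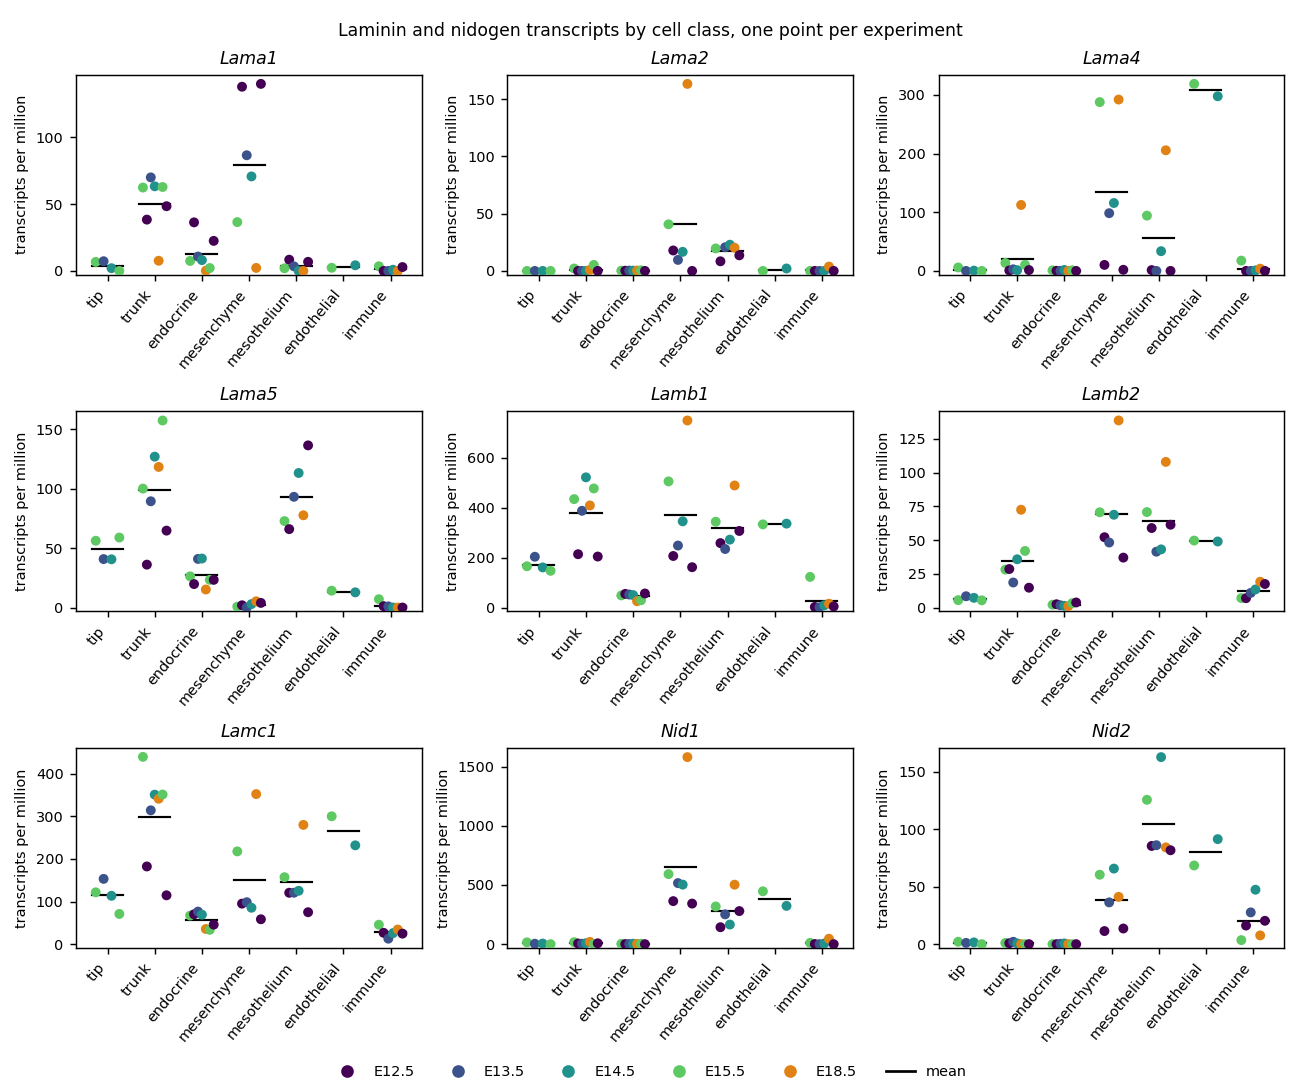
Level of each gene (CPM, linear axes that differ between panels) in 7 cell classes; each point is 1 experiment, coloured by embryonic day, and the bar is the mean. Nid1 and Lama2 sit near 0 in tip, trunk and endocrine cells, and Lama5 sits near 0 in mesenchyme.

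The 4 alpha chains differed in which classes held them. Lama5, the alpha chain of laminins found under most epithelia, held 36.1 to 157 CPM in trunk (7 experiments), 65.9 to 136 in mesothelium (median 85.3) and 40.5 to 58.8 in tip (4 experiments). Endocrine cells held 15.2 to 41.2 and mesenchyme 0 to 5.24. Tip and mesothelium did not overlap, nor did any epithelial class with mesenchyme. Lama5 was lower in mesenchyme than in epithelium, by a log2 difference of −4.71 ± 0.36 (adjusted p = 5.91e-13; lower in 6 of 6). Its mesenchymal level over all wells was 2.60% of that of trunk, and the summed pan-epithelial markers there were 2.38%.

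Mesothelium did not differ detectably from trunk in Lama5 (log2 0.05 ± 0.26, adjusted p = 0.917; higher in 3 of 6). It exceeded mesenchyme by 5.19 ± 0.38 (adjusted p = 1.81e-12; 6 of 6, with no overlap). The pan-epithelial markers in mesothelium ranged from 123 to 374 CPM, against 2027 to 4805 in trunk.

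Lama1, an alpha chain of early basement membranes, was made on both sides. Mesenchyme held 2.25 to 140 CPM (median 78.7), trunk 7.62 to 70.1 (median 62.5) and endocrine cells 0.173 to 36.4 (median 8.11). Tip held 0 to 7.27 and mesothelium 0 to 8.41. Mesenchyme exceeded the mean of tip and trunk by a log2 of 1.94 ± 0.35 (adjusted p = 1.78e-05), in 5 of 6 experiments, the exception being E18.5. The low tip level enters that mean, and mesenchyme was not tested against trunk alone. Mesenchyme lay below trunk in EP10 as well as at E18.5. Over experiments the means were 79.1 CPM in mesenchyme and 50.5 in trunk, with overlapping ranges. Mesothelium was lower than mesenchyme (log2 −4.65 ± 0.58, adjusted p = 2.24e-07) and lower than trunk (−4.32 ± 0.60, adjusted p = 6.88e-07), each in 6 of 6 experiments.

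Lama2, the alpha chain of the laminin best known from muscle, was counted in mesenchyme at 0 to 163 CPM (median 17.3) and in mesothelium at 8.41 to 22.9 (median 19.9). Tip held 0 transcripts in all 4 experiments. With 3 counts over all tip wells as the limit, 0.377 CPM, Lama2 was at least 107-fold higher in mesenchyme over all wells, at 40.2 CPM. That fold sets unlike stages side by side: EP16 had 0 tip wells and gave 218 of the 423 mesenchymal transcripts. Mesenchyme of EP10, EP12 and EP14, which also had tip sums, held 40.7, 9.63 and 16.7 CPM. Trunk held 4 transcripts in all (0.479 CPM), 1.19% of the mesenchymal level over all wells. The difference between mesothelium and mesenchyme did not pass the test (log2 −0.72 ± 0.49, adjusted p = 0.346; higher in 3 of 6). Against epithelium, Lama2 gave log2 differences of 7.52 ± 0.66 for mesenchyme (higher in 5 of 6, with both at 0 in EP18 mesenchyme and trunk) and 5.28 ± 0.73 for mesothelium against trunk (higher in 6 of 6; adjusted p = 4.77e-11 and 8.93e-07), values that rest on the few epithelial transcripts.

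Lama4, an alpha chain of vessel and stromal laminins, was highest in endothelium, at 298 CPM in EP14 and 319 in EP10. Mesenchyme of the same experiments held 116 and 288 CPM, and the difference between these classes did not pass the test (log2 0.73). Mesenchyme held 1.95 to 292 (median 107), mesothelium 0 to 206 (median 17.5), trunk 0.792 to 112 (median 2.75), tip 0 to 5.91 and endocrine cells 0 to 1.67. Mesenchyme exceeded epithelium by a log2 of 4.90 ± 0.49 (adjusted p = 3.18e-10; 6 of 6). Mesothelium was lower than mesenchyme (log2 −1.83 ± 0.51, adjusted p = 0.00922; lower in 6 of 6) and higher than trunk (1.74 ± 0.57, adjusted p = 0.0175; higher in 4 of 6). The first call was lost without EP12 and without the block (adjusted p = 0.42 for the latter), and the second was lost with DESeq2, without EP10, without EP14 and without the block.

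Lamb1 and Lamc1, the beta and gamma chains of the commonest laminins, were counted in every class. For Lamb1 trunk held 204 to 521 CPM (median 409), mesenchyme 162 to 749 (median 297), endothelium 333 and 336, mesothelium 234 to 489, tip 147 to 203 and endocrine cells 25.4 to 56.3. For Lamc1 trunk held 115 to 439 (median 341), endothelium 232 and 300, mesenchyme 58.4 to 352 (median 96.7), mesothelium 74.9 to 280, tip 70.9 to 153 and endocrine cells 33.6 to 76.4. Neither differed detectably between mesenchyme and the mean of tip and trunk: the log2 differences were 0.47 ± 0.34 for Lamb1 and −0.43 ± 0.25 for Lamc1 (adjusted p = 0.258 and 0.154). Without EP16, the Lamc1 difference became −0.74 and passed the test. Tip lay below trunk in both genes, and mesenchyme was not tested against trunk alone. For Lamc1 the mesenchymal median of 96.7 CPM lay below the trunk median of 341, with overlapping ranges. Mesothelium was below trunk in Lamc1 (log2 −1.06 ± 0.28, adjusted p = 0.0034; lower in 6 of 6) and not detectably so in Lamb1 (−0.23 ± 0.37, adjusted p = 0.686).

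Lamb2, the beta chain that replaces Lamb1 in mature and neuromuscular basement membranes, leaned to the stroma. Mesenchyme held 37.0 to 139 CPM (median 60.4), mesothelium 41.4 to 108 (median 60.1), endothelium 48.9 and 49.6, trunk 14.7 to 72.4 (median 28.5), tip 5.35 to 8.37 and endocrine cells 1.04 to 3.75. It was higher in mesenchyme than in epithelium (log2 2.14 ± 0.24, adjusted p = 2.39e-09; 6 of 6) and higher in mesothelium than in trunk (1.01 ± 0.27, adjusted p = 0.00337; 6 of 6).

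Read against all 13969 genes tested, mesenchyme against epithelium gave 6 members higher and 1 lower of 9, where 28.2% of genes were higher and 23.2% lower. The members' median log2 difference was 2.14, against 0.07 over all genes. Mesothelium against mesenchyme gave 2 higher and 3 lower (background 9.61% and 8.67%; medians −0.24 and −0.10), and mesothelium against trunk 5 higher and 2 lower (17.2% and 14.6%; medians 1.01 and −0.02).

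**Figure D3:**
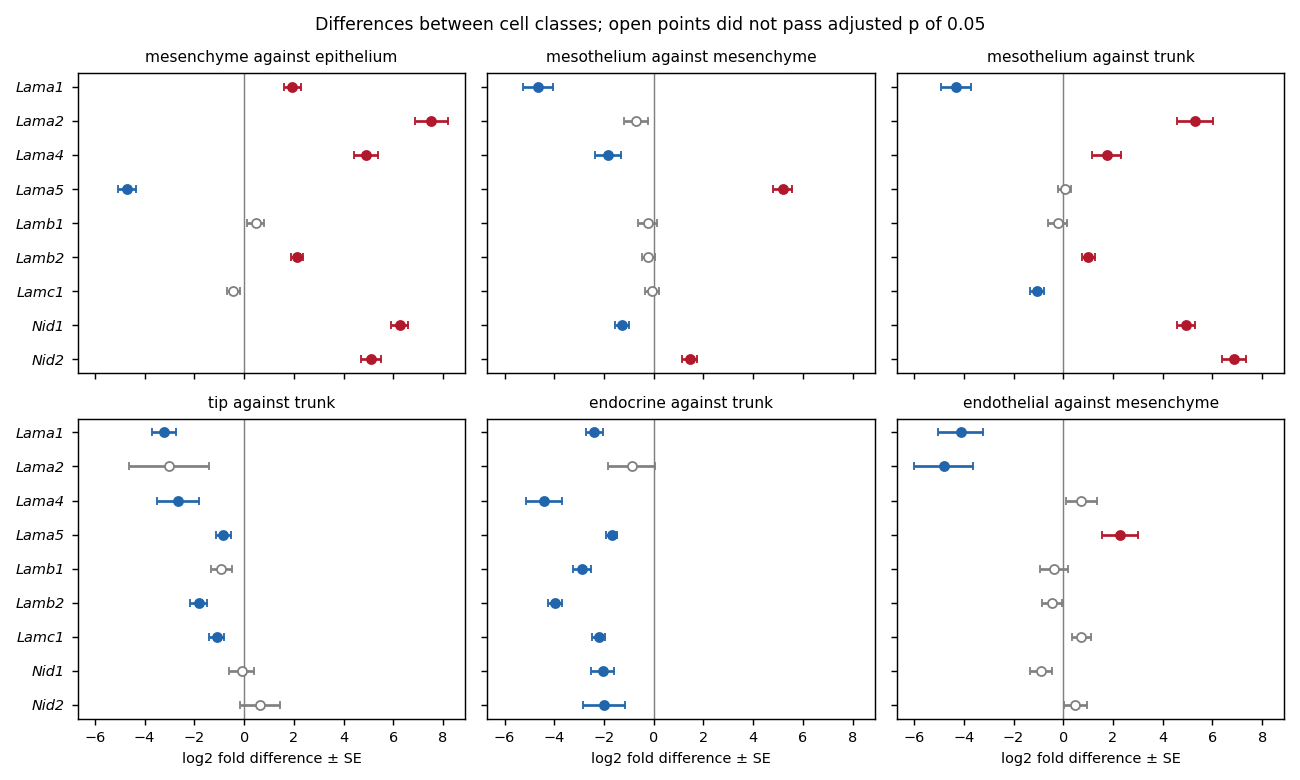
Log2 fold difference with its standard error for the 9 genes in 6 comparisons of cell classes; red points were higher, blue points lower and open points not past the adjusted p of 0.05. Lama5 lies opposite to Lama2, Lama4, Nid1 and Nid2 in mesenchyme against epithelium, and all 8 called genes lie below 0 in endocrine against trunk.

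Inside the epithelium, trunk carried more laminin transcripts than tip. Lama1 was 3.21 ± 0.49 log2 units lower in tip (log2 −3.21, adjusted p = 1.38e-05), with 0 to 7.27 CPM in tip and 62.5, 70.1, 63.4 and 62.9 in trunk of the same 4 experiments. Lamb2 was lower as well (log2 −1.83 ± 0.34, adjusted p = 0.000204), and for both genes the tip and trunk sums did not overlap. Lama4 (−2.65 ± 0.85), Lamc1 (−1.09 ± 0.30) and Lama5 (−0.84 ± 0.29) were also called, with adjusted p of 0.0266, 0.00954 and 0.0434. The latter 3 calls were each lost without the block and on leaving out any of 3 experiments: EP12, EP16 or EP17 for Lama4, EP10, EP14 or EP17 for Lamc1, and EP12, EP14 or EP17 for Lama5.
Lamb1 was lower in tip in 4 of 4 experiments, with no overlap, but did not pass (log2 −0.92 ± 0.42, adjusted p = 0.136). Neither nidogen passed. Over all wells Nid1 stood at 1.19% of its mesenchymal level in tip and 1.39% in trunk, and Nid2 at 3.26% and 1.98%, where the mesenchyme markers stood at 1.67% and 1.16%. In all 5 members were lower and 0 higher of 9, against a background of 8.4% lower and 9.48% higher. No tip sum came from E12.5 or E18.5.

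Endocrine cells held fewer laminin transcripts than trunk. Lamb2 (log2 −3.97 ± 0.29, adjusted p = 1.69e-13), Lamb1 (−2.89 ± 0.37, adjusted p = 3.46e-08) and Lamc1 (−2.21 ± 0.25, adjusted p = 4.38e-09) were each lower in 7 of 7 experiments, with no overlap between the classes. Lama1 (−2.38 ± 0.35) and Lama5 (−1.69 ± 0.24) were also lower in 7 of 7 (adjusted p = 5.71e-07 and 2.14e-07), and Lama4 (−4.40 ± 0.72) in 6 of 7 (adjusted p = 3.04e-06). Nid1 and Nid2 were called lower (−2.05 ± 0.45 and −2.01 ± 0.84), from levels of at most 19.1 and 2.06 CPM in trunk, and Nid1 lost its call on live plates only (log2 −0.71, adjusted p = 0.233). Nid2 lost its call in 9 of 20 alternatives, among them leaving out EP10, EP11, EP12, EP16 or EP18. In all 8 of 9 members were lower and 0 higher, where 25.4% of all genes were lower and 31.2% higher. Hormone transcripts took up part of the endocrine total, with 1.22% to 16.1% over the 7 sums (median 3.15%). Class and sort largely went together here: 1692 of 2217 endocrine wells came from MIP-GFP plates, and 369 of 385 trunk wells from live plates. Lama1, Lama5, Lamb1, Lamb2 and Lamc1 kept their calls in all 21 alternatives, live plates only among them.

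The endocrine class held unlike cells. Wells of the Neurog3 cluster, precursors that have just left the trunk, held 43.3 to 159 CPM of Lama5 and 93.2 to 224 of Lamb1 over 4 experiments. Wells of the Fev cluster, later precursors, held 17.5 to 45.4 and 5.85 to 62.1. Both genes were higher in the Neurog3 cluster in 4 of 4 experiments (exact sign-flip permutation p = 0.125, the smallest that 4 pairs can give), whereas Lamc1 was higher in 1 of 4. Lama5 in glucagon-gated and insulin-gated wells, those whose hormone took at least 1% of transcripts and 3 times any other hormone, was 13.2 to 24.5 and 13.6 to 21.1.

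Wells of both hormone groups were present in 5 experiments, and their Lama1 levels are given as a description. Glucagon-gated wells held 15.7, 25.7, 19.7, 3.89 and 14.6 CPM in EP10, EP12, EP14, EP16 and EP17, and insulin-gated wells of the same experiments held 2.83, 0.984, 1.58, 0.0933 and 0. In EP16 each value was a single transcript, and the glucagon value of EP17 was 3. Glucagon-gated wells were higher in 5 of 5, as they were for Lamc1 (exact sign-flip permutation p = 0.0625 for each, the smallest that 5 pairs can give, so that no difference could pass 0.05). At E12.5 glucagon-gated wells held 38.7 CPM of Lama1 in EP11 and 23.4 in EP18, and the unnamed wells of EP11 held 34.7. These groups and their comparison were added after the data were seen.

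Endothelium could be compared with mesenchyme in EP10 and EP14 only. Lama1 (log2 −4.12 ± 0.91) and Lama2 (−4.80 ± 1.18) were lower in endothelium (adjusted p = 0.00102 and 0.0034), with 3 and 1 transcripts in the endothelial sums. Lama5 was higher (2.26 ± 0.72, adjusted p = 0.0221), at 12.8 and 14.2 CPM against 2.92 and 0.747. Lama1 lost its call without EP14, Lama2 without EP10, and Lama5 without either and with marker gates per well, each fit without an experiment then resting on 1 endothelial sum taken to vary like the others. The other 6 members did not pass, though Lamc1 did without EP16 (log2 0.97, adjusted p = 0.0149). In all 1 member was higher and 2 lower, where 12.3% of genes were higher and 9.18% lower. The endothelial sums held 234 and 321 CPM of pan-epithelial markers, 74.4 and 295 of mesenchyme markers, and up to 5871 of tip and acinar markers. Markers of the endocrine hormone list reached 366 and 8869 CPM there, and immune markers 56.7 and 1625. The part of RNA from these other classes in the Lama5 value was not tested. Lama3, an alpha chain outside the 9, was also higher in endothelium (log2 5.56, adjusted p = 0.00011), at 25.7 CPM over all endothelial wells against 0.666 in mesenchyme.

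In mesenchyme Lama1 fell and Lama2 rose with stage. Lama1 held 138 and 140 CPM at E12.5, then 86.7 (E13.5), 70.8 (E14.5), 36.6 (E15.5) and finally 2.25 (E18.5), each stage below the one before. It fell by 0.81 ± 0.10 log2 units a day (adjusted p = 0.00195). Lama2 held 17.9 and 0 at E12.5, 9.63, 16.7, 40.7 and then 163 at E18.5, and rose by 0.70 ± 0.11 a day (adjusted p = 0.00746). Lama4 held 10.3 and 1.95 at E12.5, 98.4, 116, 288 and 292, with a slope of 0.80 ± 0.22 that did not pass (adjusted p = 0.0704; 0.0299 with DESeq2, and also past the threshold with no count filter).
The E12.5, intermediate and E18.5 experiments drew their mesenchymal wells largely from different clusters. Cluster 19 held 148 wells, 105 from EP11 and 37 from EP18; cluster 6 held 243, with 83, 50 and 106 from EP10, EP12 and EP14; and cluster 17 held 121, 113 of them from EP16. A change of level within a cell type and a change in the types present cannot be told apart by these slopes. Cluster 10 was led by genes of dividing cells, among them Aspm, Cenpe and Nusap1. It held 17 to 38 wells in each of 5 experiments up to E15.5 and 2 wells of EP16. Lama1 there held 159 and 162 CPM at E12.5, then 95.4 (EP12), 63.4 (EP14) and 32.4 (EP10). Whether this cluster held the same types of mesenchymal cell at each stage was not tested.
As a share of the transcripts of the 4 alpha genes, Lama1 made up 82.1% and 96.0% at E12.5 (intervals 78.3 to 85.4 and 88.9 to 98.6) and 0.485% at E18.5 (0.165 to 1.42), where Lama4 made up 63.1% and Lama2 35.3%. These shares set genes of unlike capture side by side, so only their change over stages is read.

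The shared chains and Nid1 went up with stage in mesenchyme. Lamb1 rose by 0.38 ± 0.05 a day (162 and 206 CPM at E12.5, 749 at E18.5; adjusted p = 0.00418), Lamc1 by 0.41 ± 0.07 (58.4 and 95.04 to 352; adjusted p = 0.00872) and Lamb2 by 0.30 ± 0.05 (37.0 and 52.1 to 139; adjusted p = 0.0108). Nid1 rose by 0.37 ± 0.06 (343 and 363 to 1580; adjusted p = 0.00525), and Nid2 did not pass (0.29 ± 0.14, adjusted p = 0.277). Of 8 members tested, 5 rose and 1 fell, where 4.41% of 10994 genes rose and 1.4% fell. Lama5 was below the count filter. All 6 calls were lost without EP16, the only E18.5 experiment, though each slope kept its sign (−0.60 for Lama1, 0.59 for Lama2, 0.48 for Lamb1, 0.43 for Lamc1, 0.24 for Lamb2 and 0.24 for Nid1). In that fit 38 genes in all were called, against 639. The mesenchyme markers summed to 39419 CPM in EP16 and to a median of 11976 over the 6 sums.

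**Figure D4:**
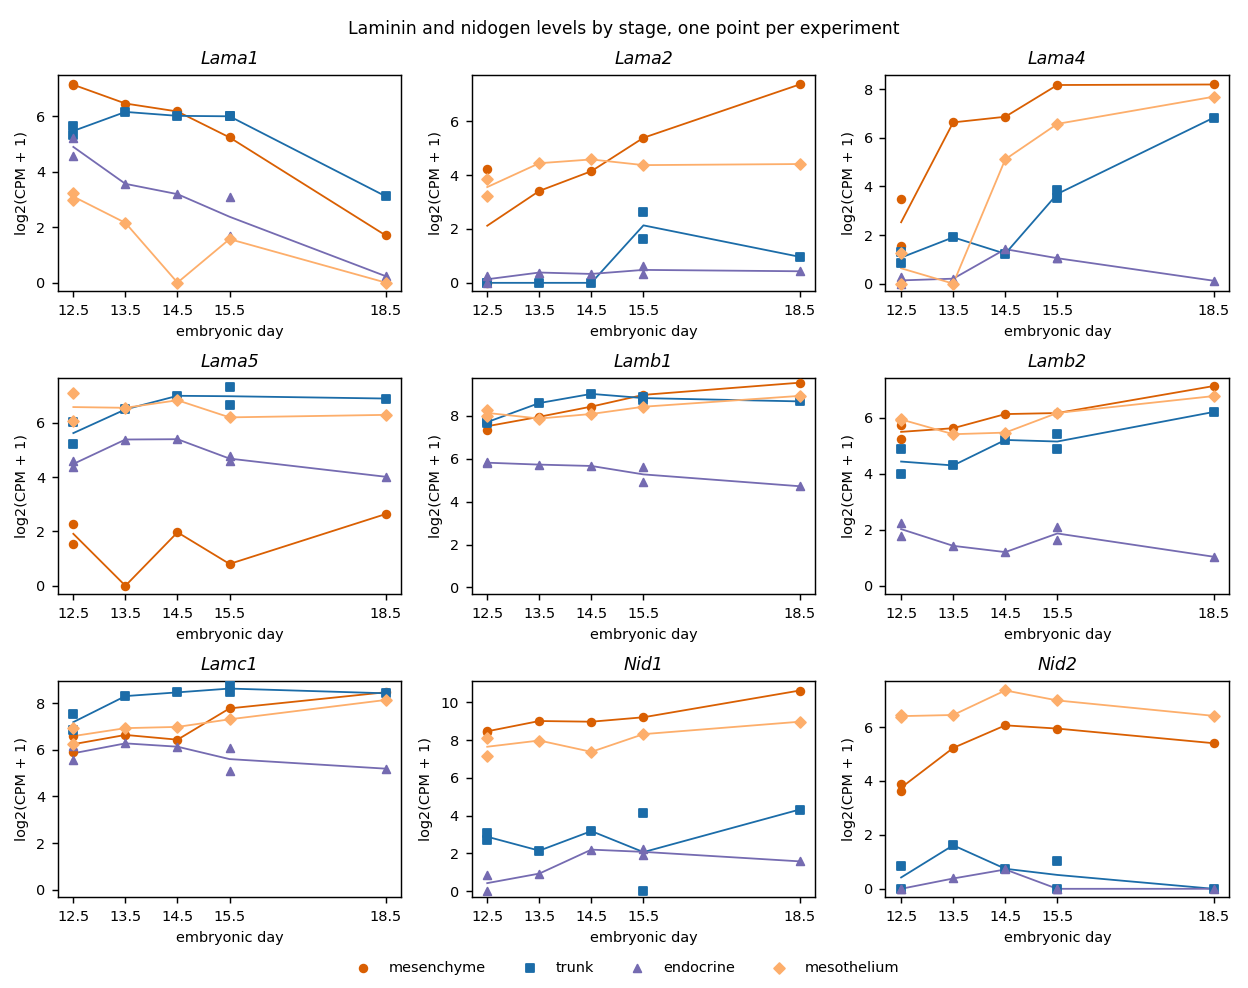
Level of each gene as log2(CPM + 1) against embryonic day in mesenchyme, trunk, endocrine cells and mesothelium; each point is 1 experiment and lines join the means of each stage. At E18.5 Lama1 is at its lowest level in mesenchyme, trunk and endocrine cells and at 0 in mesothelium, and Lama4 is highest at E18.5 in mesenchyme, trunk and mesothelium.

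In trunk Lama4 was the only member called with stage. It held 0.792 and 1.47 CPM at E12.5, then 2.75 (E13.5), 1.35 (E14.5), 13.54 and 10.5 (E15.5) and finally 112 (E18.5), and rose by 1.15 ± 0.10 log2 units a day (adjusted p = 0.00019). The call was kept in the 18 alternatives that tested it, with slopes from 1.09 to 1.18. Without EP16, which held 118 of the 142 trunk transcripts, Lama4 was below the count filter and was not tested, as on the authors' wells and without cycling clusters. Of the 65 trunk wells of EP16, 51 formed a cluster that held no other experiment, with 112 CPM. The other 14 lay in cluster 11, shared with all other experiments, where Lama4 held 114 CPM in EP16 and 0 to 18.2 elsewhere. Genes of dividing cells, such as Top2a and Aurkb, were among the leading genes of cluster 11. It held 79 of the 80 trunk wells of EP11 and 53 of the 60 of EP18. A change of level within a cell type and a change in the types present cannot be told apart by the trunk slope. At E18.5 a Lama4 transcript was seen in 43 of 65 trunk wells (66.2%, 54.0 to 76.5), with at most 10 in 1 well, against 2 of 53 at E14.5. The E18.5 trunk level was 38.5% of that of E18.5 mesenchyme, while Nid1 stood at 1.21% and the mesenchyme markers at 1.21%. One of 7 members tested rose and 0 fell, where 2.87% of 10102 genes rose and 1.16% fell. Lama2 and Nid2 were below the filter.
Lama1 held 7.62 CPM in trunk at E18.5 and 38.4 to 70.1 before, with a slope of −0.28 ± 0.15 (adjusted p = 0.342), and Lama5 had a slope of 0.20 ± 0.09 (adjusted p = 0.282). Mesothelial Lama4 was 1.4 and 0 CPM at E12.5, then 0 (E13.5), 33.6 (E14.5), 94.3 (E15.5) and finally 206 (E18.5). Its trend was not tested.

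**Figure D5:**
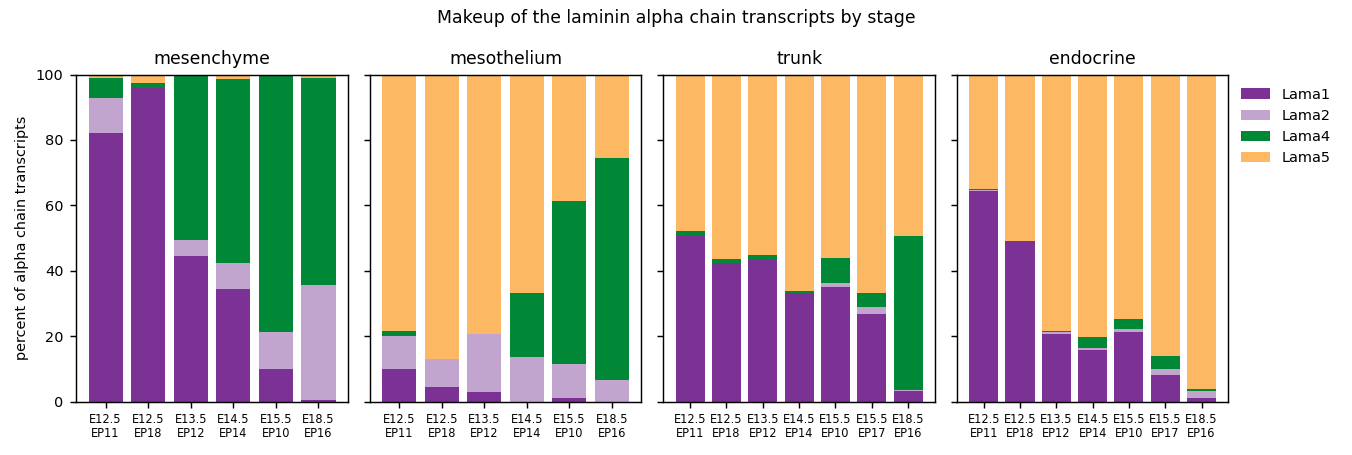
Percent of the summed Lama1, Lama2, Lama4 and Lama5 transcripts taken by each gene, by experiment ordered by stage, in 4 classes. In mesenchyme Lama1 goes from 82.1% and 96.0% at E12.5 to 0.485% at E18.5, and in mesothelium Lama4 goes from 1.67% and 0% to 67.8%.

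The slopes of mesenchyme and trunk differed for 3 members in a comparison added after the data were seen. The daily change of Lama1 was 0.67 ± 0.11 log2 units lower in mesenchyme (difference −0.67, adjusted p = 0.0041). That of Lama4 was −0.77 ± 0.14 (adjusted p = 0.00997) and that of Lamb1 0.25 ± 0.06 (adjusted p = 0.0269). One of 8 members was higher and 2 lower, where 2.47% of 10062 genes were higher and 2% lower. Lama1 kept its call in all 8 alternatives. Without EP16 the Lama4 difference was 0.12 (adjusted p = 0.955), and Lamb1 lost its call without EP12, EP16 or EP18.

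In endocrine cells Lama1 fell by 0.95 ± 0.13 log2 units a day (adjusted p = 0.00229), from 36.4 and 22.5 CPM at E12.5 to 10.8, 8.11, then 7.47 and 2.17 (E15.5) and finally 0.173 (E18.5). Of 6 members tested it alone was called, where 8.8% of 13022 genes rose and 6.57% fell. The makeup of the class moved with stage: glucagon-gated wells were 140 of 195 in EP11 and 15 of 662 in EP16, and insulin-gated wells were 0 and 604. Within the glucagon-gated wells Lama1 was 38.7 and 23.4 at E12.5, 25.7, 19.7, then 15.7 and 14.6 at E15.5, with 1 transcript at E18.5. With the stages of the titles the slope was −0.49 (adjusted p = 0.812) and 0 genes of the whole table passed.

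The other genes of the basement membrane were counted from lists of 30 components, 23 receptors and 25 enzymes and assembly factors. In mesenchyme against epithelium 11 of 25 components tested were higher and 6 lower, where 28.2% and 23.2% of all genes were. Frem1, a matrix protein of embryonic basement membranes (log2 6.99), and the hemicentin Hmcn1 (4.71) led the higher ones, and the calcium-binding Smoc1 (−4.93) was among the lower ones. Of 22 receptors 8 were higher and 9 lower, against the same shares. The epithelial laminin receptor subunits Itgb4 (−4.19) and Itga6 (−3.50) were lower in mesenchyme, and Itgb3 (5.27) and the collagen and laminin receptor Itga1 (4.06) were higher. Of 24 enzymes 16 were higher and 1 lower, led by the crosslinking enzyme Lox (8.90) and the protease Mmp2 (5.85).

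In mesothelium against mesenchyme 11 of 22 receptors were higher and 0 lower, where 9.61% and 8.67% of all genes were, led by the Lama5 receptor Bcam (log2 5.47) and Itga3 (5.35). Of 25 components 10 were higher and 5 lower, with Frem2 (5.44) and Col4a6 (4.60) higher and Col4a1 (−4.30) and Frem1 (−3.49) lower. In tip against trunk 9 of 25 components were lower and 1 higher (all genes 8.4% and 9.48%): Sparc (−3.38) and Tinagl1 (−3.26) led the lower ones, and netrin Ntn1 was higher (3.53). Itga6 was the 1 receptor of 22 that was higher in tip (2.19), and 3 were lower, among them Itga3 (−1.98).
In endocrine against trunk 18 of 25 components were lower and 2 higher, where 25.4% and 31.2% of all genes were, with Col4a6 (−5.85) and Tinagl1 (−5.74) lowest and Fbln2 (3.83) and Npnt (2.09) higher. Itgb4 (−6.19) and the syndecan Sdc1 (−4.12) were the lowest receptors. With stage in mesenchyme 9 of 18 components tested rose and 0 fell (all genes 4.41% and 1.4%), among them Col15a1 (1.08 a day), and in trunk 5 of 15 rose and 1 fell (2.87% and 1.16%), among them Tinagl1 (0.89 a day).

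The genes most like each member over the 41 sums of class and experiment were found by Pearson r of log2(CPM + 5) among 13969 genes. The sums share plates and experiments and differ in depth, so r is a description. Nid1 was most like Akap12, Fbn1 and Col5a2 (r = 0.97, 0.96 and 0.96), of which Fbn1 and Col5a2 encode a microfibril protein and a fibrillar collagen chain. Lama5 was most like Cxadr, Celsr1 and Pard6b (0.96, 0.96 and 0.93), which encode a junction receptor, a planar polarity cadherin and an apical polarity protein. Lama2 was most like Col12a1, Fgf10 and Mmp23 (0.94, 0.90 and 0.89), and Lama4 like Ehd2, Emp1 and Rhoj (0.89, 0.88 and 0.87).
Lamb1 was most like Tcf7l1, Lamc1 and Yap1 (0.93, 0.89 and 0.89), and Lamc1 like Lamb1, Cdc42ep1 and the perlecan gene Hspg2 (0.89, 0.85 and 0.85). Lamb2 was most like Anxa2, Gulp1 and Rbms2 (0.91, 0.90 and 0.90), and Nid2 like Nrp2, Crim1 and Zcchc24 (0.89, 0.89 and 0.88). Lama1 had the lowest best match, with Auts2, Dact1 and Sox5 (0.79, 0.79 and 0.78).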

How the data were processed

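Live-sorted and MIP-GFP-sorted cells of mouse embryonic pancreas were profiled by SORT-seq, per the labels' protocols. Each deposited value is an expected count of transcripts, which the authors estimated from unique molecular identifiers without scaling for depth. The submitters' processing notes name BWA, Seurat and the build mm10, without versions. Of the table's columns, 5760 wells matched labelled libraries by plate name and 1536 matched none and were not used; 4 libraries without an experiment number matched no wells. Wells with at least 2000 transcripts without spike-ins and 500 genes were kept (4318), and 8 of these were dropped as possible doublets because they exceeded their plate's median by 5 times or more. No doublet caller was run on cells sorted 1 to a well. Values were rounded to whole numbers.

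Clusters came from scanpy 1.11.5 (2000 variable genes, 30 principal components, 15 neighbours, resolution 1), made without all listed matrix genes. A cluster was named for the list whose markers were most often 2-fold up in 25% of wells (3 markers or more). Clusters 2, 9 and 22 were named by a hepatocyte list under this rule and were looked at again. Cluster 2 (297 wells, 160 of EP11 and 107 of EP18) was set to endocrine. Its 10 leading genes held endocrine hormone markers and no hepatocyte marker. Cluster 22, with tip and trunk lists raised equally, was set to progenitor, and cluster 9 was left unnamed. Names therefore rest on rebuilt clusters. Sums of at least 10 wells per experiment and class were tested with edgeR 4.0.16 (R 4.3.3; quasi-likelihood test, TMM scaling, filterByExpr, Benjamini-Hochberg adjustment at 0.05), over all classes with the experiment as block, or per class on embryonic day. The experiment number pairs the sums, and sums of the same experiment deviated together in all 34 pairs checked (r from 0.17 to 0.56). The labels do not name the embryos or litters behind an experiment, so the experiment was the replicate. In class comparisons p-values rest on the spread left after the block on experiment, estimated over all classes. That spread also holds changes of a class difference with stage. In the slopes of a single class they rest on the spread of experiments about the slope. The scripts were tested on simulated data. Wilson intervals are at 95% and cover counting error only, as does the limit of 3 counts. Alternatives were DESeq2 1.42.0, upper-quartile scaling, no filter, other minimums, the authors' own wells, live plates, marker gates and leaving out each experiment. Named were the 9 genes in every comparison, the 3 genes most like each, and up to 2 called genes per list and direction; 1 item is not reported here. The 9 genes and all lists were chosen with earlier results of these data known.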

Additional observations from a re-analysis of the deposited data

Results flagged for a closer look

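Among 42 sets of 4 to 7 sums with at least 20 transcripts, 6 had 1 experiment far from the others by Dixon's 95% criterion, where chance flags about 1 in 20. In mesenchyme the E18.5 experiment EP16 stood apart for Lama2 (163 CPM, next 40.7), Lamb2 (139, next 70.5) and Nid1 (1580, next 592). In trunk EP16 stood apart for Lama4 (112, next 13.54). EP16 is the only E18.5 experiment, so stage and experiment cannot be told apart there. In immune wells EP16 stood apart for Nid1 (45.8, next 10.5), where mesenchyme markers were at 2.42% of the mesenchymal level and Nid1 at 2.90%, and EP10 stood apart for Lamb1 (123, next 15.3). The 35 Lamb1 transcripts of EP10 came from 6 of 17 immune wells, 17 of them from 1 well.

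The daily change differed between mesenchyme and trunk for Lama1 (log2 −0.67), Lama4 (−0.77) and Lamb1 (0.25), by the test of the difference itself, which was added after the data were seen. Only Lama1 kept its call in every alternative. Without EP16 the Lama4 difference was 0.12, and Lamb1 lost its call without EP12, EP16 or EP18.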

How the results depend on the processing

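Of 46 calls on members, 26 were kept in every alternative that tested them (Lama4 in trunk slope per day was below the filter without EP16), and 1 changed sign: the Lama4 difference in mesenchyme slope minus trunk slope, which ran from −0.87 to 0.12 on leaving out each experiment, 0.12 being without EP16. Counts of called genes stayed within 1.5 times the original in 167 of 193 alternatives. Without the replicate block, tip against trunk called 1368 genes and not 2498. The other counts without the block were 6028 for mesenchyme against epithelium, 1764 for mesothelium against mesenchyme, 3520 for mesothelium against trunk, 6519 for endocrine against trunk and 2174 for endothelial against mesenchyme. Leaving out each experiment in turn gave 1390 to 2615 genes in tip against trunk, 1064 to 3287 in endothelial against mesenchyme, 38 to 639 in mesenchyme slope per day, 92 to 365 in trunk slope per day, 559 to 1991 in endocrine slope per day and 233 to 468 in mesenchyme slope minus trunk slope (main counts 2994, 639, 407, 2001 and 450 for the last 5). With DESeq2, mesenchyme slope per day called 996 and trunk slope per day 727. With no filter these were 1134 and 875, and mesenchyme slope minus trunk slope was 753. Without the E18.5 experiment mesenchyme slope per day called 38, trunk slope per day 92 and endocrine slope per day 559. Trunk slope per day called 98 on the authors' wells and 249 without cycling clusters. Endocrine slope per day called 512 on live plates and 0 with the stages of the titles, where 722 of 12917 genes had an unadjusted edgeR p below 0.05 and no other tool was run. The causes were not tested.

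With DESeq2 and its size factors the split of tip against trunk went from 1324 higher and 1174 lower to 1235 and 1694. The median log2 of all genes went from −0.04 to −0.16. Test and scaling changed together in that run, so their parts cannot be told apart. Mesenchyme, mesothelium and endothelium had too few of the authors' wells for a fit, and endothelial against mesenchyme could not be fitted on live plates or with 20 wells a sum. Averaging over wells kept 66 of 72 levels within 1 SD, and 62 of 72 shares of wells moved without thinning, none downward. Depth limits EP17 and EP18 most. In mesenchyme of EP18 Lama2 had 0 transcripts, at a depth where the 1 transcript of Lama4 stood at 1.95 CPM. Mesenchyme of EP11, the other E12.5 experiment, held 17.9 CPM of Lama2. The cause of this gap was not tested.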
